A study of Homo sapiens with 18 samples.

Results

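ADORA2A, AKAP12, MALL, BAIAP2L2, CFAP44, NAP1L2, ANKRD29, SERPINI1, DMC1 and IQCK are 10 genes whose RNA moved in the same direction in 3 human prostate cancer cell lines after knockdown of EMD. They were picked by symbol because each rose in all 3 lines or fell in all 3, so the knockdown contrasts chose them, and their fold changes are given as a description with no p-value. All 10 were found among the 18445 genes that the 3 deposited tables share. EMD encodes emerin, an inner nuclear membrane protein that binds the lamina. RNA was sequenced in 3 EMD knockdown and 3 control libraries of each of C4-2B, 22Rv1 and DU145, 18 libraries in all, to compare cells with less EMD against control cells of the same line. C4-2B derives from LNCaP cells grown in castrated mice, 22Rv1 was established from a xenograft that relapsed after castration, and DU145 was grown from a metastasis in the brain. Knockdown cells received siRNA against EMD and control cells a scrambled siRNA, both by lipid transfection with the mix taken off after 24 h, and no other gene was altered in any group. The DU145 knockdown libraries have names that contain shEMD, the usual mark of a hairpin vector, so the reagent of that line is not settled by the labels. Each line is 1 established line with its own table, batch label and, for DU145, its own medium (DMEM in place of RPMI-1640), and line and batch cannot be told apart. The libraries are called triplicates without a statement that they came from separate cultures, so p-values measure the spread between these libraries, which may be technical.

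The 10 genes belong to no common pathway. AKAP12 and ADORA2A act in cyclic AMP signalling: the adenosine receptor ADORA2A raises cyclic AMP through stimulatory G proteins, and AKAP12 is a scaffold that holds protein kinase A and protein kinase C near the membrane. MALL is a MARVEL-domain protein of membrane rafts, BAIAP2L2 is a membrane-binding protein of the I-BAR family, and SERPINI1 (neuroserpin) is a secreted inhibitor of tissue plasminogen activator. CFAP44 builds the axoneme of motile cilia and sperm flagella, DMC1 is the meiotic strand-exchange recombinase, NAP1L2 is a histone chaperone best known from neurons, and ANKRD29 and IQCK are named for ankyrin repeats and an IQ motif.

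The genes lie apart in the genome (GENCODE, GRCh38). ADORA2A (24417879 to 24442360, plus strand), BAIAP2L2 (38084889 to 38110670, minus strand) and DMC1 (38518949 to 38570286, minus strand) are on chromosome 22. CFAP44 (113286947 to 113441610, minus strand) and SERPINI1 (167735243 to 167825568, plus strand) are on chromosome 3. AKAP12 is on chromosome 6 (151239999 to 151358557, plus strand), MALL on chromosome 2 (110083870 to 110116566, minus strand), ANKRD29 on chromosome 18 (23598926 to 23662885, minus strand), IQCK on chromosome 16 (19716456 to 19858467, plus strand) and NAP1L2 on the X chromosome (73212299 to 73214848, minus strand). All are protein-coding, and the counts cover whole genes.

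The RefSeq promoter table (GRCh38.p14) held 11 promoters of 7 of the 10 genes. The 250 bases before each start were searched on both strands for a few motifs. The E-box CACGTG stood before all 3 AKAP12 starts, 93, 17 and 11 bases upstream, and 89 bases before the IQCK start; 6.34% of the 35116 promoters in the table hold it. The palindromic NRF1 motif stood before CFAP44 (1.03% of promoters) and the ETS motif CCGGAAG, on either strand, at 2 places before IQCK (8.52%). These 5 windows are shown because they carry the matches, which are capitalised, and because AKAP12 fell while CFAP44 and IQCK rose. Another CFAP44 window (chr3:113441494-113441743, minus strand) overlaps the 1 shown, holds the same NRF1 match and is left out. Part of the IQCK window is also the start of KNOP1, which is read from the other strand.
AKAP12 (chr6:151239717-151239966, plus strand): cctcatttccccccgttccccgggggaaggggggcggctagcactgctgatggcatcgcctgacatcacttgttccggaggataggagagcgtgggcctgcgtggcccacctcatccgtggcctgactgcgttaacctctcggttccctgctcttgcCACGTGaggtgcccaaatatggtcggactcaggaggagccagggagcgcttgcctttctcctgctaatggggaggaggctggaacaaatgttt
AKAP12 (chr6:151325281-151325530, plus strand): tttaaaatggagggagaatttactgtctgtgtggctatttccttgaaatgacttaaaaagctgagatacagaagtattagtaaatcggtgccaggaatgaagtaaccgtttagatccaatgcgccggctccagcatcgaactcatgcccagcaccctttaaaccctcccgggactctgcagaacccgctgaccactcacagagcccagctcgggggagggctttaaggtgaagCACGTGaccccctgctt
AKAP12 (chr6:151341456-151341705, plus strand): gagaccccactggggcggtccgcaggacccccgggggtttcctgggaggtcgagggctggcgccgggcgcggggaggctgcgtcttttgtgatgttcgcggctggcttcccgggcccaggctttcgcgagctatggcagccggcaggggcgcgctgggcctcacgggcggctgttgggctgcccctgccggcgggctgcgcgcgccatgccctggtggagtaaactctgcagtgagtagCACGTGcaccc
CFAP44 (chr3:113441515-113441764, minus strand): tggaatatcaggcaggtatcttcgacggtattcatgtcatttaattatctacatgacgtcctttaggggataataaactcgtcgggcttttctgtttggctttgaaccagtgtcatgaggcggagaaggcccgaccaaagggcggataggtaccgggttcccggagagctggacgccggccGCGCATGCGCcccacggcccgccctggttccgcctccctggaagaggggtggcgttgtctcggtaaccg
IQCK (chr16:19718021-19718270, plus strand): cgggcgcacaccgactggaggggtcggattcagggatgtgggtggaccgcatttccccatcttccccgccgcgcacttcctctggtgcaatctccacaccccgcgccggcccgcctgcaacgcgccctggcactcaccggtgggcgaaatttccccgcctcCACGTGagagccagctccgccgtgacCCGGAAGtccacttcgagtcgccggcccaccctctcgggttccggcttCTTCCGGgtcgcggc

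A GC box (GGGCGG) was found before AKAP12, CFAP44, DMC1 and MALL and stands in 42.64% of all promoters. The AP-1 motif TGANTCA (6.57%) stood before NAP1L2, and CCAAT (32.01%) and the TEAD motif GGAATG (11.89%) before 1 of the AKAP12 starts. No member promoter held the CRE TGACGTCA (1.65%), the E2F motif TTTNGCGC (1.51%) or the heat shock motif (0.44%), a statement about these letters in these windows and nothing more. So no searched motif was common to the 7 genes.

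The smallest and largest libraries held 14722733 and 25112148 reads for C4-2B, 15602874 and 30788078 for 22Rv1, and 21024352 and 43311727 for DU145. EMD itself was at 6.38 to 10.0 CPM in C4-2B knockdown libraries against 67.2 to 75.1 in controls, 17.5 to 21.2 against 60.9 to 69.7 in 22Rv1, and 4.61 to 5.01 against 40.7 to 47.7 in DU145. HOXB13, a prostate lineage factor, was at 184 ± 3.36 CPM in knockdown and 214 ± 12.1 in control C4-2B libraries (SD, n = 3 each, as for every mean below, while log2 fold changes are given ± SE) and at 419 ± 10.4 and 401 ± 15.5 in 22Rv1, but had 1 read in all 6 DU145 libraries. KRT8, a luminal keratin, was high in all 3 lines. Group means of the luminal markers tested ran from 184 to 1696 CPM in C4-2B, 14.7 to 656 in 22Rv1 and 0.196 to 23.3 in DU145. Those of the epithelial markers ran from 116 to 801 CPM in C4-2B, 90.2 to 889 in 22Rv1 and 5.04 to 1243 in DU145. The markers moved with the knockdown too. Of the luminal markers tested, 1 of 7 rose and 5 fell in C4-2B (median log2 fold change -0.44), 0 of 7 rose and 4 fell in 22Rv1 (-0.19), and 0 of 5 rose and 1 fell in DU145 (0.05). Of 4 epithelial markers, 2 rose and 0 fell in C4-2B (0.08), 1 rose and 3 fell in 22Rv1 (-0.33), and 1 rose and 3 fell in DU145 (-1.08). Their part in the results below was not tested. CPM are read counts relative to the TMM-scaled library total and do not correct for gene length, so levels are compared between samples and not between genes. In bulk RNA, fewer cells that express a gene and less RNA per cell cannot be told apart.

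All 10 genes passed the filter on low counts in all 3 lines. The filter can be met by either group alone. ANKRD29 in 22Rv1 and DMC1 in C4-2B met it only through knockdown libraries, and MALL in 22Rv1 only through controls. Without the filter their log2 fold changes were 2.08, 1.55 and -1.60. All 10 genes passed an adjusted p of 0.05 in each line (edgeR). Among all genes tested, 41.7% passed in C4-2B (19.4% higher and 22.3% lower), 67.8% in 22Rv1 (33.5% and 34.3%) and 47.6% in DU145 (24.1% and 23.6%). With library totals in place of TMM, 57.0% of the C4-2B calls were rises, against 46.6% with TMM. Of the 13078 genes tested in all 3 lines, 277 (2.12%) were higher in each and 303 (2.32%) lower in each, and the 10 genes are 8 of the first set and 2 of the second by choice. Every knockdown library lay outside the range of the controls for each of the 10 in each line, as chosen. Over all genes, the knockdown libraries lay above the controls for 24.5% and below them for 26% in C4-2B, for 35.1% and 35.9% in 22Rv1, and for 28.2% and 26.6% in DU145, and in all 3 lines above for 3.14% and below for 3.09%. The plot of levels by library shows this separation for each gene.

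**Figure D1:**
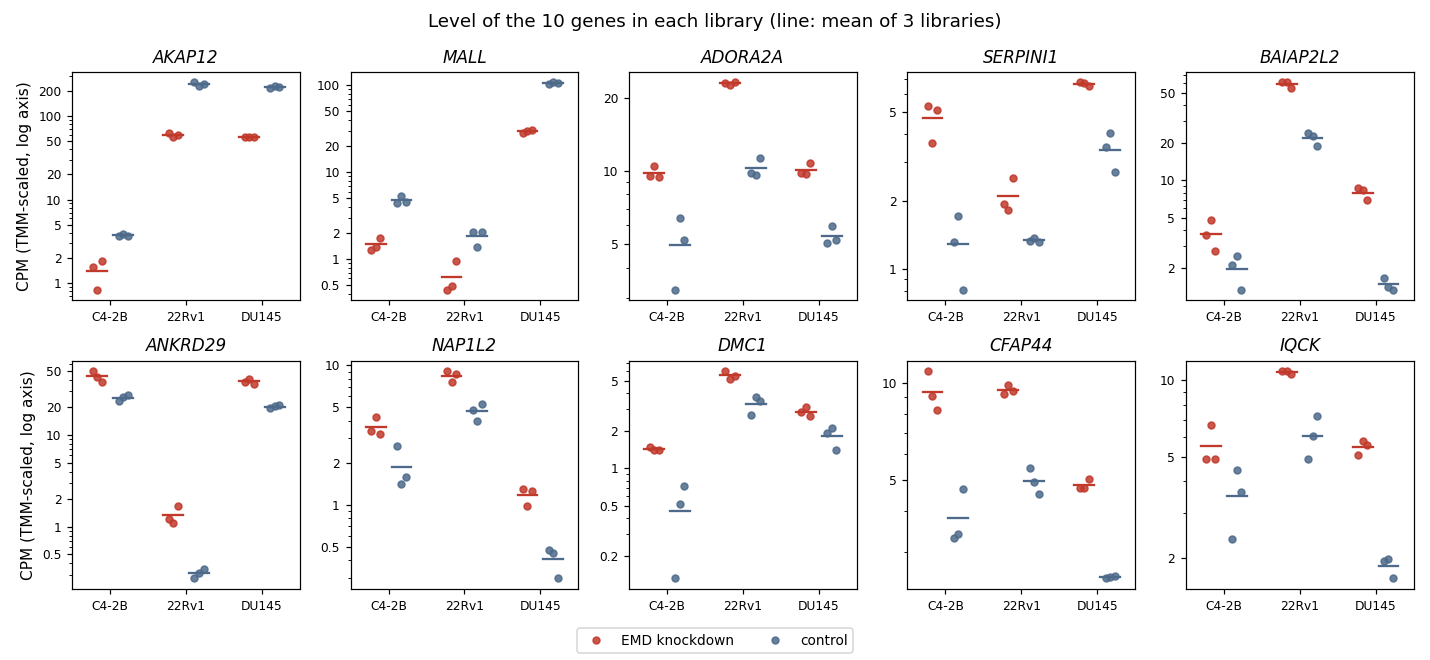
Level of each of the 10 genes in the 18 libraries (y axis, TMM-scaled CPM on a log axis; x axis, cell line). Points are libraries, short lines the mean of 3, EMD knockdown in red at the left of control in blue. AKAP12 and MALL are lower in the knockdown libraries of every line and the other 8 genes are higher, with no overlap between the 2 groups.

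AKAP12 and MALL fell. AKAP12 had 1.55, 0.838 and 1.82 CPM in C4-2B knockdown libraries, against 3.64, 3.93 and 3.68 CPM in controls. AKAP12 in 22Rv1 was at 63.1, 56.8 and 58.6 CPM with EMD knocked down, against 253, 229 and 244 CPM in controls. AKAP12 in DU145 reached 55.7, 55.5 and 56.0 CPM in knockdown libraries, against 214, 226 and 220 CPM in controls. The same gene was thus low in C4-2B controls and abundant in the other 2 lines, and fell in all of them, with no overlap between groups. The fall was 2.68-fold in C4-2B, 4.06-fold in 22Rv1 and 3.95-fold in DU145, or -1.42 ± 0.30 in C4-2B, -2.02 ± 0.05 in 22Rv1 and -1.98 ± 0.05 in DU145.

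MALL, the raft protein, also fell in each line. MALL had 1.28, 1.40 and 1.76 CPM in C4-2B knockdown libraries, against 4.43, 5.34 and 4.53 CPM in controls. MALL in 22Rv1 was at 0.446, 0.489 and 0.942 CPM with EMD knocked down, against 2.05, 1.37 and 2.08 CPM in controls. MALL in DU145 reached 28.2, 30.1 and 30.3 CPM in knockdown libraries, against 105, 108 and 107 CPM in controls. Both groups stood apart in each line, at levels that differed widely between lines: MALL was abundant in DU145 and rested on 8 to 16 reads a knockdown library in 22Rv1. Its log2 fold change was -1.68 ± 0.26 in C4-2B, -1.60 ± 0.37 in 22Rv1 and -1.85 ± 0.05 in DU145. Genes with 0.5 to 2 CPM had a median log2 fold change of -0.44 in 22Rv1, 0.19 in C4-2B and about 0 in DU145, and those with 2 to 10 CPM -0.33 in 22Rv1 and 0.13 in C4-2B. The part this has in the fall of MALL in 22Rv1, or in rises of the low genes below in C4-2B, was not tested.

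ADORA2A, the adenosine receptor, rose about as much in each line. ADORA2A had 9.51, 10.5 and 9.48 CPM in C4-2B knockdown libraries, against 3.24, 6.39 and 5.18 CPM in controls. ADORA2A in 22Rv1 was at 23.1, 22.5 and 23.2 CPM with EMD knocked down, against 9.79, 9.62 and 11.3 CPM in controls. ADORA2A in DU145 reached 9.80, 9.67 and 10.8 CPM in knockdown libraries, against 5.05, 5.93 and 5.19 CPM in controls. Its knockdown libraries were close together in every line, and the controls of C4-2B were the most spread. Log2 fold changes were 0.98 ± 0.19 in C4-2B, 1.16 ± 0.09 in 22Rv1 and 0.89 ± 0.10 in DU145, and no 2 lines differed by more than 0.26 ± 0.14 (22Rv1 minus DU145).

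SERPINI1, the secreted inhibitor neuroserpin, rose most in C4-2B. SERPINI1 had 5.33, 3.63 and 5.10 CPM in C4-2B knockdown libraries, against 1.32, 1.73 and 0.809 CPM in controls. SERPINI1 in 22Rv1 was at 1.95, 1.84 and 2.53 CPM with EMD knocked down, against 1.33, 1.37 and 1.32 CPM in controls. SERPINI1 in DU145 reached 6.78, 6.76 and 6.52 CPM in knockdown libraries, against 3.48, 4.01 and 2.70 CPM in controls. Separation was wide in C4-2B and DU145 and narrow in 22Rv1, where the lowest knockdown library had 30 reads and the control with fewest had 22. Fitted log2 changes were 1.88 ± 0.30 in C4-2B, 0.64 ± 0.28 in 22Rv1 and 0.97 ± 0.13 in DU145. The difference between C4-2B and 22Rv1 was 1.23 ± 0.41. In 22Rv1 the call was lost in 10 of the 12 alternative analyses in which the gene passed the filter, with log2 fold changes between 0.49 and 0.73.

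BAIAP2L2, the I-BAR protein, showed its largest change in DU145. BAIAP2L2 had 3.64, 4.86 and 2.73 CPM in C4-2B knockdown libraries, against 2.12, 2.46 and 1.33 CPM in controls. BAIAP2L2 in 22Rv1 was at 61.2, 61.2 and 55.2 CPM with EMD knocked down, against 23.8, 22.6 and 18.9 CPM in controls. BAIAP2L2 in DU145 reached 8.71, 8.34 and 6.94 CPM in knockdown libraries, against 1.67, 1.41 and 1.33 CPM in controls. The groups lay far apart in DU145 and 22Rv1 and close together in C4-2B. On the log2 scale it changed by 0.94 ± 0.30 in C4-2B, 1.45 ± 0.08 in 22Rv1 and 2.46 ± 0.14 in DU145, and C4-2B minus DU145 was -1.52 ± 0.33. In C4-2B the call was lost without control replicate 3 (0.70 ± 0.31) or without EMD knockdown replicate 2 (0.70 ± 0.35).

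ANKRD29, an ankyrin repeat protein, had its largest log2 fold change in the line where it was lowest. ANKRD29 had 49.96, 42.7 and 38.1 CPM in C4-2B knockdown libraries, against 23.4, 25.8 and 27.0 CPM in controls. ANKRD29 in 22Rv1 was at 1.22, 1.10 and 1.71 CPM with EMD knocked down, against 0.274, 0.312 and 0.347 CPM in controls. ANKRD29 in DU145 reached 37.8, 41.3 and 36.4 CPM in knockdown libraries, against 19.5, 20.8 and 21.0 CPM in controls. In 22Rv1 these values are 18 to 30 reads a knockdown library and 5 to 11 reads a control library. ANKRD29 passed the filter there only through its knockdown libraries, and it did not pass a filter of 50 reads in 3 libraries. The part this has in the difference between lines was not tested. The log2 fold change came to 0.77 ± 0.09 in C4-2B, 2.08 ± 0.42 in 22Rv1 and 0.90 ± 0.06 in DU145, and 22Rv1 minus DU145 was 1.18 ± 0.43.

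NAP1L2, the X-linked histone chaperone, rose in each line. NAP1L2 had 3.37, 4.25 and 3.22 CPM in C4-2B knockdown libraries, against 2.65, 1.41 and 1.58 CPM in controls. NAP1L2 in 22Rv1 was at 9.08, 7.59 and 8.59 CPM with EMD knocked down, against 4.76, 4.00 and 5.23 CPM in controls. NAP1L2 in DU145 reached 1.29, 0.981 and 1.26 CPM in knockdown libraries, against 0.477, 0.454 and 0.297 CPM in controls. The DU145 values rest on 28 to 47 reads a knockdown library and 10 to 19 reads a control library. Changes on the log2 scale were 0.97 ± 0.29 in C4-2B, 0.84 ± 0.15 in 22Rv1 and 1.54 ± 0.35 in DU145. No pair of lines differed by more than 0.70 ± 0.38. The C4-2B call was lost without control replicate 2, control replicate 3 or EMD knockdown replicate 2, with log2 fold changes of 0.80, 0.85 and 0.83.

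DMC1 is known for recombination in meiosis and its RNA was scarce here. DMC1 had 1.48, 1.40 and 1.40 CPM in C4-2B knockdown libraries, against 0.132, 0.524 and 0.728 CPM in controls. DMC1 in 22Rv1 was at 6.00, 5.20 and 5.47 CPM with EMD knocked down, against 2.67, 3.75 and 3.47 CPM in controls. DMC1 in DU145 reached 2.80, 3.12 and 2.60 CPM in knockdown libraries, against 1.91, 2.10 and 1.39 CPM in controls. The lowest C4-2B control library had 2 reads and the highest 18. DMC1 passed the filter in C4-2B only through its knockdown libraries. Log2 fold changes were 1.54 ± 0.51 in C4-2B, 0.77 ± 0.18 in 22Rv1 and 0.65 ± 0.19 in DU145. In C4-2B the value was 2.03 ± 0.63 without control replicate 3 and 1.16 ± 0.53 without control replicate 1, and the call was lost without control replicate 1 and without EMD knockdown replicate 1 or 3 (1.52 ± 0.61 and 1.56 ± 0.61).

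CFAP44, the axonemal protein, rose in each line. CFAP44 had 10.9, 9.06 and 8.20 CPM in C4-2B knockdown libraries, against 3.31, 3.41 and 4.69 CPM in controls. CFAP44 in 22Rv1 was at 9.20, 9.85 and 9.42 CPM with EMD knocked down, against 5.44, 4.94 and 4.51 CPM in controls. CFAP44 in DU145 reached 4.72, 4.73 and 5.04 CPM in knockdown libraries, against 2.48, 2.51 and 2.52 CPM in controls. Control libraries of DU145 agreed to within a few hundredths of a CPM. Its log2 changes were 1.28 ± 0.19 in C4-2B, 0.93 ± 0.13 in 22Rv1 and 0.95 ± 0.14 in DU145, and no 2 lines differed by more than 0.35 ± 0.23 (C4-2B minus 22Rv1).

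IQCK, the IQ-motif protein, rose most in DU145. IQCK had 4.92, 6.65 and 4.92 CPM in C4-2B knockdown libraries, against 2.38, 4.45 and 3.64 CPM in controls. IQCK in 22Rv1 was at 10.9, 10.9 and 10.6 CPM with EMD knocked down, against 4.89, 6.06 and 7.25 CPM in controls. IQCK in DU145 reached 5.11, 5.75 and 5.57 CPM in knockdown libraries, against 1.95, 1.98 and 1.66 CPM in controls. The gap between groups was narrowest in C4-2B. Log2 fold changes were 0.64 ± 0.23 in C4-2B, 0.83 ± 0.14 in 22Rv1 and 1.55 ± 0.15 in DU145, and 22Rv1 minus DU145 was -0.73 ± 0.20. The C4-2B call was lost without control replicate 1 (0.45 ± 0.23), without control replicate 3 (0.67 ± 0.27) or without EMD knockdown replicate 2 (0.48 ± 0.27).

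**Figure D2:**
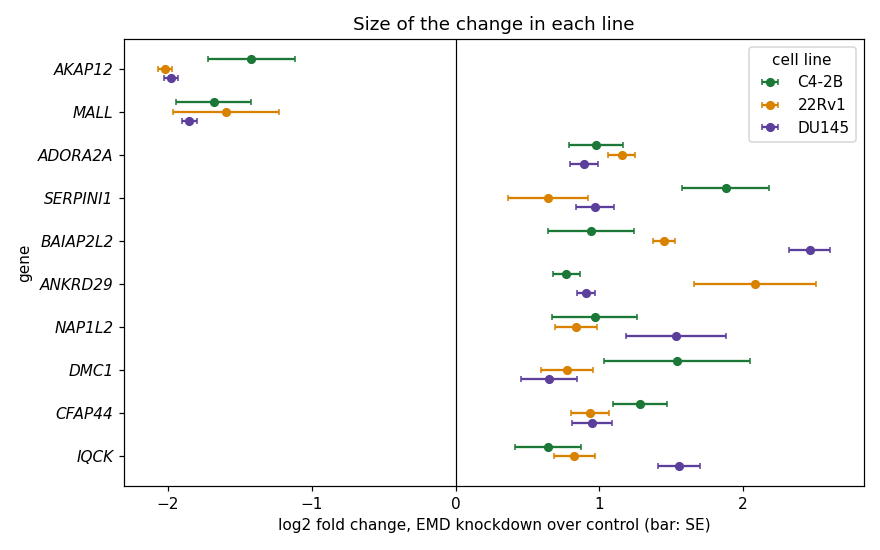
Log2 fold change of each gene, EMD knockdown over control (x axis; point, edgeR estimate; bar, SE), in C4-2B, 22Rv1 and DU145 (colours), with genes down the y axis. AKAP12 and MALL lie between -1.42 and -2.02 and the other 8 genes between 0.64 and 2.46.

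Set among all genes that moved one way in the 3 lines, ranked by the smallest of their 3 absolute log2 fold changes, BAIAP2L2 (0.94), CFAP44 (0.93), ADORA2A (0.89) and NAP1L2 (0.84) held the first 4 places of the 277 higher genes. ANKRD29 was at place 6, DMC1 at 10, IQCK at 12 and SERPINI1 at 13. MALL (1.597) and AKAP12 (1.42) were at places 4 and 5 of the 303 lower genes. No gene was at least 2-fold higher in all 3 lines. At least 2-fold lower in all 3 were 9 genes (0.0688%), among them MALL, AKAP12 and EMD, the knockdown target. The plot of ranks places the 10 genes at the steep end of both curves.

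**Figure D3:**
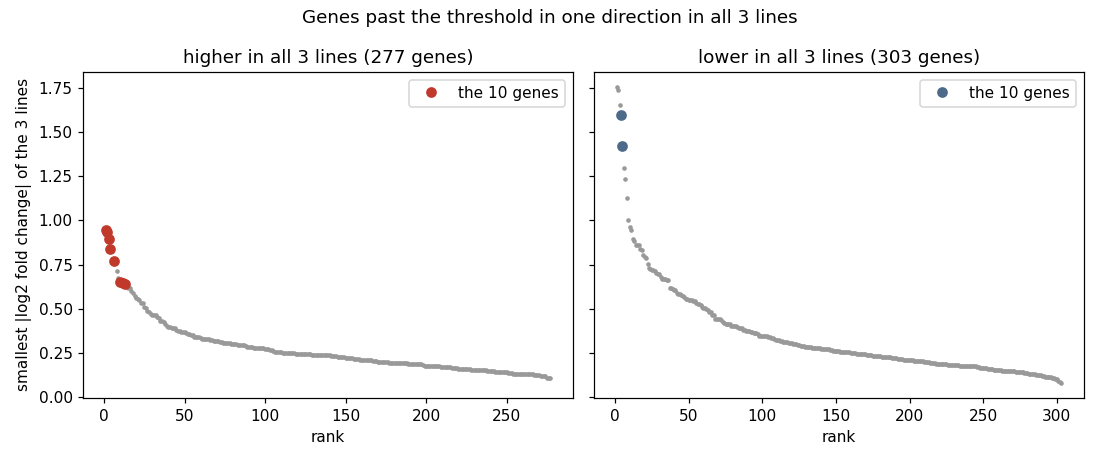
Smallest absolute log2 fold change over the 3 lines (y axis) against rank (x axis) for the 277 genes higher and the 303 genes lower in all 3 lines, with the 10 genes marked in colour and the others in grey. The 8 rising genes lie within the first 13 places and the 2 falling genes at places 4 and 5.

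Other genes with the pattern most like theirs, by the same measure over 3 lines, were H4C8, a histone H4 gene (log2 fold changes of 0.83 ± 0.08 in C4-2B, 1.64 ± 0.51 in 22Rv1 and 0.98 ± 0.11 in DU145), SLC1A3, a glutamate transporter (0.82 ± 0.22, 0.77 ± 0.11 and 1.25 ± 0.21 in the same order of lines), the non-coding RNA LINC01963, SQSTM1, the autophagy receptor p62, and SREBF1, a master factor of lipid synthesis. SQSTM1 rose by 0.80 ± 0.04, 0.67 ± 0.04 and 0.83 ± 0.05. Among the falling genes they were PHYHD1, FAM167A, OAS3, LOX and EMD, the target of the knockdown, whose fall was set by the design. OAS3, an interferon-induced enzyme, had -1.45 ± 0.11, -1.86 ± 0.08 and -1.29 ± 0.06, and LOX, which crosslinks collagen, -1.47 ± 0.44, -1.24 ± 0.13 and -3.35 ± 0.08.

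The level in control cells was not used to choose the genes, and it differed between lines. A fit over the 18 libraries compared control groups (CPM below are on its scale, and line and batch cannot be told apart). Of the 10 genes, 9 differed between C4-2B and 22Rv1, 7 between C4-2B and DU145 and 9 between 22Rv1 and DU145, against 78.4%, 83.1% and 83.8% of all genes tested, so these shares are near the background.

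AKAP12 was at 3.70 ± 0.16 CPM in C4-2B, 242 ± 14.7 in 22Rv1 and 238 ± 9.58 in DU145. C4-2B was lower by 6.03 and 6.00 on the log2 scale (edgeR adjusted p = 3.61e-34 and 1.23e-34), and 22Rv1 and DU145 were within their spread (difference 0.03 ± 0.05, adjusted p = 0.639), although with library totals in place of TMM that difference was 0.21 with an adjusted p of 0.000165. MALL was at 4.71 ± 0.50 CPM in C4-2B, 1.84 ± 0.42 in 22Rv1 and 115 ± 3.25 in DU145, all 3 pairs apart. ANKRD29, like MALL, was lowest in 22Rv1. It was at 25.1 ± 1.87 CPM in C4-2B, 0.311 ± 0.037 in 22Rv1 and 22.1 ± 1.09 in DU145.

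BAIAP2L2 was highest in 22Rv1, at 21.7 ± 2.43 CPM against 1.95 ± 0.57 in C4-2B and 1.59 ± 0.17 in DU145, the last 2 not apart (adjusted p = 0.287; 0.0435 without C4-2B control replicate 3). NAP1L2 was also highest in 22Rv1, with 1.85 ± 0.66 CPM in C4-2B, 4.66 ± 0.67 in 22Rv1 and 0.442 ± 0.104 in DU145. ADORA2A averaged 4.87 ± 1.57 CPM in C4-2B, 10.2 ± 1.00 in 22Rv1 and 5.83 ± 0.56 in DU145, and C4-2B and DU145 did not pass (adjusted p = 0.135; 0.0120 without C4-2B control replicate 2). BAIAP2L2, NAP1L2 and ADORA2A were thus all highest in 22Rv1, whereas MALL was highest in DU145.

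SERPINI1 was highest in DU145 (3.67 ± 0.73 CPM) and did not pass between C4-2B (1.27 ± 0.46) and 22Rv1 (1.34 ± 0.01). CFAP44 had 3.75 ± 0.76 CPM in C4-2B, 4.95 ± 0.46 in 22Rv1 and 2.70 ± 0.05 in DU145. Its C4-2B and 22Rv1 libraries overlapped, and that call (adjusted p = 0.0373) was lost in 5 alternatives, among them the 9 control libraries alone (0.0832) and each of C4-2B control replicates 1 and 2 and 22Rv1 control replicate 1 left out (0.126, 0.131 and 0.145). Its call between C4-2B and DU145 (adjusted p = 0.0106) was lost without C4-2B control replicate 3 (0.160). DMC1 ordered as 0.455 ± 0.299 CPM in C4-2B, 3.29 ± 0.54 in 22Rv1 and 1.95 ± 0.40 in DU145, with the 22Rv1 and DU145 pair at an adjusted p of 0.00657, or 0.0531 without DU145 control replicate 3. IQCK was highest in 22Rv1 (6.06 ± 1.20 CPM), then C4-2B (3.45 ± 1.03) and DU145 (2.02 ± 0.19). ANKRD29 was not called between C4-2B and DU145 (adjusted p = 0.0522), and 5 alternatives called it, with adjusted p between 0.000669 and 0.0459.

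Of 120 genes of the lists around the 10 that were tested in all 3 lines, 1 rose in each (OCLN, occludin of tight junctions) and 3 fell in each (MAL2, CDC42 and PRKAR2B, a regulatory subunit of protein kinase A), beside 2.12% and 2.32% of all genes (edgeR adjusted p in each line). The fall of PRKAR2B in DU145 (-0.26 ± 0.08) was lost without control replicate 2 or 3 or without EMD knockdown replicate 1 or 3, with log2 fold changes of -0.23, -0.21, -0.25 and -0.13. MAL2, a MARVEL-domain relative of MALL, fell in C4-2B (-0.32 ± 0.04, adjusted p = 6.11e-07), 22Rv1 (-0.53 ± 0.04, 1.5e-10) and DU145 (-1.68 ± 0.08, 8.43e-16). PLLP (plasmolipin), of the same family, fell in 22Rv1 (-0.96 ± 0.18) and rose in DU145 (0.73 ± 0.06). Of the MARVEL list tested, 2 of 15 rose and 5 fell in C4-2B, and 5 of 16 rose and 10 fell in 22Rv1. In DU145, 5 of 16 rose and 3 fell. Median log2 fold changes were -0.11, -0.35 and 0.03 in C4-2B, 22Rv1 and DU145, beside 0.01, -0.00 and 0.01 for all genes. Across all genes tested, 19.4% rose and 22.3% fell in C4-2B, 33.5% and 34.3% in 22Rv1, and 24.1% and 23.6% in DU145. Neither this list nor those below were tested against these shares.

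Around ADORA2A, the receptors ADORA1 and ADORA2B fell in 22Rv1 (-0.48 ± 0.12 and -0.69 ± 0.21), rose in DU145 (0.72 ± 0.05 and 0.29 ± 0.07) and were at -0.01 ± 0.37 and 0.03 ± 0.13 in C4-2B. GNAL, a stimulatory G protein subunit, fell in C4-2B and 22Rv1 (-1.27 ± 0.19 and -3.46 ± 0.15) and rose in DU145 (0.56 ± 0.06), and ADA, which degrades adenosine, fell in 22Rv1 (-2.09 ± 0.10) and rose in DU145 (0.84 ± 0.08). NT5E, which makes adenosine, rose in 22Rv1 (0.97 ± 0.27) and DU145 (0.90 ± 0.05). In the adenosine list 2 of 15 tested genes rose and 3 fell in C4-2B, 5 of 16 and 8 in 22Rv1, and 9 of 15 and 2 in DU145.

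Among the protein kinase A subunits and other anchoring proteins of the AKAP12 list, 2 of 23 rose and 6 fell in C4-2B, 9 of 21 and 5 in 22Rv1, and 5 of 24 and 10 in DU145. AKAP5, another anchoring protein, fell in C4-2B (-0.99 ± 0.08) and DU145 (-0.41 ± 0.11) and rose in 22Rv1 (1.88 ± 0.06). PRKACA, the catalytic subunit, fell in C4-2B (-0.72 ± 0.06) and DU145 (-0.60 ± 0.05), and its small rise in 22Rv1 (0.10 ± 0.04) was lost in 9 of 12 alternatives. PRKAR2A, a regulatory subunit, rose in 22Rv1 (1.19 ± 0.04).

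For BAIAP2L2, the I-BAR relative BAIAP2 rose in C4-2B (0.39 ± 0.05) and DU145 (0.47 ± 0.05), BAIAP2L1 rose in C4-2B (0.24 ± 0.05) and fell in DU145 (-0.20 ± 0.05), and MTSS1 fell in 22Rv1 (-0.61 ± 0.08) and rose in DU145 (1.12 ± 0.09). CDC42, the small GTPase that works with these proteins, fell in C4-2B (-1.02 ± 0.06), 22Rv1 (-0.61 ± 0.09) and DU145 (-0.22 ± 0.05). The list had 5 of 14 rises and 3 falls in C4-2B, 6 of 16 and 3 in 22Rv1, and 5 of 15 and 8 in DU145.

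For CFAP44, the cilia and flagella list had 9 rises and 1 fall among 30 tested genes in C4-2B, 3 rises and 11 falls among 33 in 22Rv1, and 13 rises and 5 falls among 39 in DU145, with median log2 fold changes of 0.12, -0.19 and 0.29. DNAH1, an axonemal dynein, rose in C4-2B (2.11 ± 0.27) and DU145 (1.74 ± 0.17) and fell in 22Rv1 (-0.50 ± 0.12). FOXJ1, the master factor of motile cilia, rose in DU145 (3.26 ± 0.19) and was not tested in the other lines. CFAP44 rose in 22Rv1, where 3 of 33 list genes rose and 11 fell, beside 33.5% and 34.3% of all genes tested. Genes at 2 to 10 CPM had a median log2 fold change of -0.33 in 22Rv1, and the list was not tested against these values.

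The IQ-motif list of IQCK had 1 rise and 2 falls of 8 in C4-2B, 3 and 3 of 7 in 22Rv1, and 4 and 1 of 9 in DU145. IQCD fell in 22Rv1 (-0.74 ± 0.15) and rose in DU145 (2.03 ± 0.12), and IQCN rose in C4-2B (1.40 ± 0.14) and fell in 22Rv1 (-0.95 ± 0.27). Of the nucleosome assembly family of NAP1L2, the X-linked NAP1L3 rose in C4-2B (1.10 ± 0.40, adjusted p = 0.0317) and 22Rv1 (0.72 ± 0.25, 0.0168), calls lost with single libraries left out, and was not tested in DU145. TSPYL2 rose in C4-2B (0.51 ± 0.08) and DU145 (0.24 ± 0.06) and fell in 22Rv1 (-0.79 ± 0.06). That list had 2 rises and 3 falls of 7 in C4-2B, 3 and 1 of 7 in 22Rv1, and 3 and 1 of 8 in DU145.

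Serpins and plasminogen activators, the list of SERPINI1, had 4 rises and 1 fall of 10 in C4-2B. The list had 0 rises and 6 falls of 9 in 22Rv1 and 0 rises and 11 falls of 16 in DU145. Median log2 fold changes were 0.32, -1.11 and -0.54 in C4-2B, 22Rv1 and DU145. SERPINI1, picked because it rose, was called higher in 22Rv1 and DU145, where no other tested gene of its list was. Its call in 22Rv1 was lost in 10 of the 12 alternatives in which it passed the filter. Across all genes tested, 33.5% rose and 34.3% fell in 22Rv1, and 24.1% and 23.6% in DU145. The list was not tested against these shares. PLAU, urokinase, fell in 22Rv1 (-3.47 ± 0.50) and DU145 (-0.87 ± 0.05), and SERPINA1 fell in DU145 (-6.14 ± 0.14; 0.290 CPM in knockdown and 20.5 in control libraries). SERPINH1, a collagen chaperone, rose in C4-2B (2.88 ± 0.26) and fell in 22Rv1 (-0.25 ± 0.06) and DU145 (-0.55 ± 0.05).

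The meiotic list of DMC1 had 1 rise and 9 falls of 15 in C4-2B, 4 and 6 of 19 in 22Rv1, and 3 and 6 of 20 in DU145. Of all genes tested, 22.3%, 34.3% and 23.6% fell in these lines. MND1, a cofactor of DMC1, fell in C4-2B (-1.89 ± 0.25) and rose in DU145 (0.63 ± 0.12).

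The nearest genes on each side and the genes that overlap the 10 gave 27 pairs, 17 of them tested in all 3 lines. Of tested pairs, 8 of 23 in C4-2B, 8 of 21 in 22Rv1 and 6 of 23 in DU145 were called in the member's direction. Past the threshold there were 9, 8 and 8 rises and 2, 6 and 1 falls. Neighbours that did not pass were not counted by direction. Over all genes tested, 19.4% rose and 22.3% fell in C4-2B, 33.5% and 34.3% in 22Rv1, and 24.1% and 23.6% in DU145, and the neighbours were not tested against these shares. LAMA3 encodes the alpha 3 chain of laminin-332 and starts 26558 bases above ANKRD29 on the opposite strand. Of the 17, only LAMA3 passed the threshold in its member's direction in all 3 lines. It had 676 ± 46.5 CPM in knockdown and 355 ± 13.3 in control C4-2B libraries, 3.65 ± 0.36 and 1.14 ± 0.41 in 22Rv1, and 178 ± 10.3 and 117 ± 4.39 in DU145. The log2 fold changes of LAMA3 were 0.93 ± 0.05, 1.66 ± 0.28 and 0.60 ± 0.05 (edgeR adjusted p = 2.61e-13, 2.11e-05 and 1.02e-10), and both LAMA3 and ANKRD29 were low in 22Rv1. NPC1, on the other side of ANKRD29, rose in C4-2B (0.32 ± 0.04) and DU145 (0.41 ± 0.05) and was at 0.12 ± 0.07 in 22Rv1.

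Close neighbours could differ from their member. PDCD10, 304 bases from SERPINI1 and read away from it, fell in C4-2B (-0.32 ± 0.07) and rose in 22Rv1 (0.26 ± 0.06) and DU145 (0.19 ± 0.06). PLA2G6 and SLC16A8, 825 and 796 bases from BAIAP2L2, both rose in C4-2B (0.66 ± 0.07 and 1.54 ± 0.46) and fell in 22Rv1 (-0.998 ± 0.098 and -0.61 ± 0.15), where BAIAP2L2 rose. Beside AKAP12, ZBTB2 (5560 bases away) and MTHFD1L (138112 bases away) were called lower in no line. MTHFD1L was at -0.08 ± 0.06 in 22Rv1, where library totals in place of TMM gave a called fall (-0.16 ± 0.06).

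Strand is not given in the sources used here, so counts of overlapping genes are uncertain. ADORA2A shares bases with the read-through gene SPECC1L-ADORA2A, whose level jumped between libraries (2.80 ± 2.57 CPM in knockdown and 2.24 ± 3.51 in control C4-2B libraries), and with the antisense ADORA2A-AS1, which rose in C4-2B (0.95 ± 0.36, adjusted p = 0.0364, lost when any of 5 single libraries was left out). SPECC1L, just upstream, rose in C4-2B (0.20 ± 0.05) and 22Rv1 (0.73 ± 0.05) and was at -0.07 ± 0.05 in DU145. IQCK overlaps KNOP1 at its start and GPRC5B at its end, and GPRC5B fell in 22Rv1 (-2.60 ± 0.11) and DU145 (-1.29 ± 0.08) while IQCK rose. CFAP44 overlaps BOC, which fell in 22Rv1 (-2.33 ± 0.29) and rose in DU145 (0.71 ± 0.20), and AC112128.1 on its own strand, which passed in no line. BAIAP2L2 overlaps AL022322.1, which rose in 22Rv1 (0.72 ± 0.31). The plot of neighbours shows these changes beside each other.

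**Figure D4:**
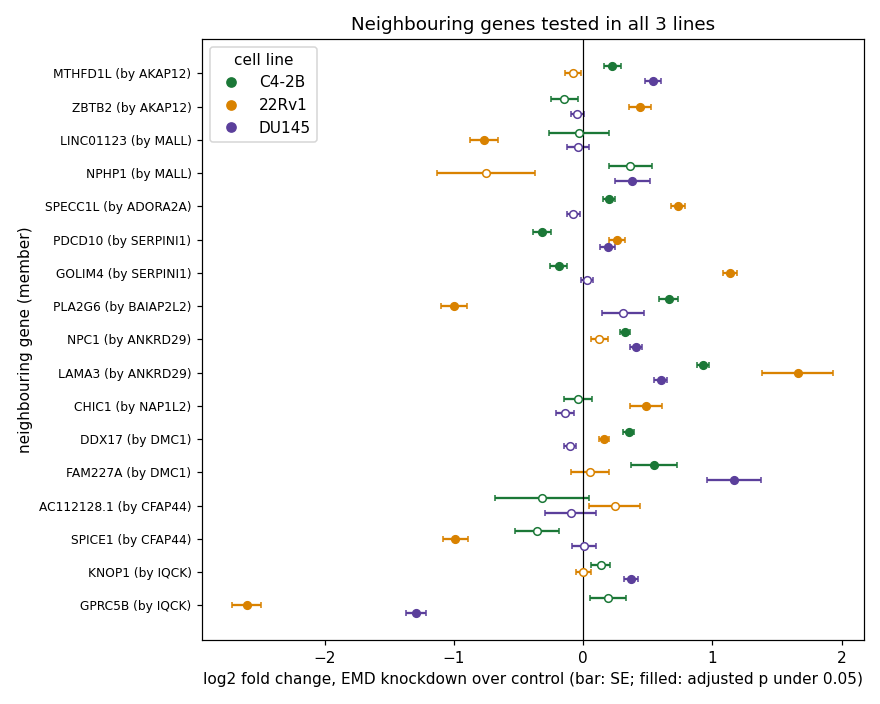
Log2 fold change, EMD knockdown over control (x axis; bar, SE), of the 17 overlapping or nearest genes tested in all 3 lines, with the member each lies by in brackets (y axis) and the lines in colours. Filled points have an adjusted p under 0.05; LAMA3 beside ANKRD29 lies at 0.60 to 1.66 and is the only 1 filled on its member's side in all 3 lines.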

How the data were processed

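RNA-seq of 18 libraries was analysed. Per the labels' protocols, total RNA was extracted from transfected cells and sequenced commercially. STAR alignment to GRCh38 and RSEM 1.3.1 counting are named in the submitters' processing notes. The deposited values are the authors' expected counts of each gene, all whole; the rounding, annotation release and strand are not given in the sources used here. The C4-2B table holds 22360 genes, that of 22Rv1 25716 and that of DU145 37256, after leaving out 92 spike-ins and 30 second copies of pseudoautosomal genes. Genes of few reads are already absent from the C4-2B and 22Rv1 tables, so an absent gene was not tested.

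From these counts, each line was fitted alone: filterByExpr (minimum count 10, total 15), TMM, the robust quasi-likelihood test of edgeR 4.0.16 (R 4.3.3), Benjamini-Hochberg over all genes tested in the line, threshold 0.05. SE is the estimate divided by the root of F. Differences between lines in the fold changes of the 10 genes subtract the estimates of the separate fits, with the root of the summed squared SEs as SE; those of other genes, and control levels, came from 1 edgeR fit over all 18 libraries. The 10 genes, the gene lists and the neighbour comparison were chosen with earlier results of these data known; up to 3 genes per list and line, past the threshold with the largest changes, and all relatives and neighbours could be named. Alternatives were library totals, DESeq2 1.42.0 (size factors and Wald test), no filter or a filter of 50 reads in 3 libraries, a replicate block and each library left out. Some genes that the naming rule covers are not reported here. The analysis was tested on simulated data. No 2 libraries of a group agreed within sampling noise (chi-square per degree of freedom 2.31 to 8.4). More reads lower the counting error, and reads that carry no molecular identifiers do not count separate molecules. Sequences are RefSeq's and neighbours GENCODE's (release 29).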

Additional observations from a re-analysis of the deposited data

Results flagged for a closer look

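Groups of 3 libraries are too small for the outlier test, which was not run. In the 27 comparisons below, of 20 relatives, list genes and neighbours of the 10 genes, both lines of a pair passed the threshold with opposite directions, and the difference itself, first line minus second line on the log2 scale, passed in the fit over 18 libraries (edgeR adjusted p at most 3.35e-05).

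Between C4-2B and 22Rv1, the difference was 2.64 for DNAH1 (axonemal dynein), 2.41 for IQCN, 1.34 for TSPYL2, 3.19 for SERPINH1, 2.20 for SLC16A8 and 1.71 for PLA2G6, all higher in C4-2B, and -2.82 for AKAP5, -0.77 for PRKACA and -0.53 for PDCD10. Between C4-2B and DU145 it was -1.84 for GNAL, -2.54 for MND1 and -0.52 for PDCD10, and 3.43 for SERPINH1 and 0.43 for BAIAP2L1.

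Between 22Rv1 and DU145 it was -4.08 for GNAL, -2.99 for ADA, -1.27 for ADORA1 and -1.06 for ADORA2B, all of the adenosine list, and -2.30 for DNAH1, -1.78 for MTSS1, -2.83 for IQCD, -1.74 for PLLP, -1.09 for TSPYL2 and -3.09 for BOC. It was 0.75 for MTSS2, 2.23 for AKAP5 and 0.64 for PRKACA. The rise of MTSS2 in 22Rv1 (0.12 ± 0.04) was lost in 5 alternatives.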

How the results depend on the processing

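No log2 fold change of the 10 genes reversed in any alternative in which the gene passed the filter. With library totals in place of TMM the genes higher in all 3 lines numbered 417, against 277; those lower ran from 253 to 370 over all alternatives. Leaving out 1 library at a time gave 222 to 343 genes higher and 253 to 307 lower in all 3 lines, 5620 to 6258 calls in C4-2B, 10661 to 11016 in 22Rv1 and 8213 to 9525 in DU145, and 8 to 9, 7 to 8 and 8 to 9 of the 10 genes apart in control level between C4-2B and 22Rv1, C4-2B and DU145, and 22Rv1 and DU145. Library totals moved the median gene by -0.08 to 0.05 on the log2 scale. The uncalled control-level differences of AKAP12 (22Rv1 against DU145) and SERPINI1 (C4-2B against 22Rv1) changed sign in 5 and 1 alternatives. The values of list genes and neighbours gave 112 lost and 21 gained calls in alternatives, and 2771 kept their call or stayed uncalled. No call reversed direction, and an uncalled value that changed sign without passing the threshold counts among the 2771.

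Replicate numbers were shared between groups, but libraries of the same number in the 2 groups of a line did not deviate together throughout (correlations from -0.04 to 0.018 in C4-2B, -0.018 to 0.029 in 22Rv1 and 0.035 to 0.294 in DU145), so they were not treated as pairs. In DU145 all same-number correlations were positive, while those of different numbers ran from -0.233 to 0.141. Without a replicate block, 9232 genes were called in DU145. With the replicate block, 6623 genes were called in C4-2B, 11146 in 22Rv1 and 9860 in DU145, 298 were higher and 313 lower in all 3 lines, and 9, 7 and 9 of the 10 genes differed in control level. Under the stricter filter 1 value each of ANKRD29, MALL and SERPINI1 in 22Rv1, BAIAP2L2 and DMC1 in C4-2B and NAP1L2 in DU145 could not be had, since the gene did not pass. Low counts stand behind some values, such as 2 to 18 reads of DMC1 in C4-2B control libraries and 5 to 11 reads of ANKRD29 in 22Rv1 control libraries.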
